A study of Mus musculus with 8 samples.

Results

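Slc17a7, Casq1 and Nova1 are 3 of the 19933 genes measured in the left ventricle of transgenic mice and controls. In the transgenic mice a placental growth factor (PlGF) transgene was driven through a cardiomyocyte promoter. The genes were chosen by their levels on these arrays, since all 3 were higher than control in both transgenic groups. They take up 4 of the 28440 probe sets of the array: 1 each for Slc17a7 and Casq1, and 2 for Nova1. Those levels are therefore given below as a description, without a test. What the choice did not use is the contrast between the 2 transgenic groups, the other genes of the same families and pathways, and the genes beside them on the chromosomes.

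Slc17a7 encodes VGLUT1, the transporter that loads glutamate into synaptic vesicles of excitatory neurons. Casq1 encodes calsequestrin 1, the calcium buffer of the sarcoplasmic reticulum in skeletal muscle, whereas heart muscle mainly uses its relative calsequestrin 2, encoded by Casq2. Nova1 encodes an RNA-binding protein known for guiding alternative splicing in neurons. None of the 3 is a textbook gene of ventricular muscle.

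The hearts came from 8 mice of the strain labelled C57/Bl6, 1 array per heart: 2 PlGF mice, 3 mice labelled PlGF/RGS4 and 3 control mice. The transgenes were under a tetracycline-off system, in which a transactivator driven by the cardiomyocyte alpha-MHC promoter turns on a responder carrying PlGF, or PlGF together with RGS4, a protein that shortens G protein signalling. In all groups a doxycycline diet kept the system off until 5 weeks of age, expression then lasted 6 weeks, and the hearts were taken at 11 weeks. Controls were littermates with only 1 of the transgenes, the driver or the responder, and the labels do not say which; carrying both transgenes and making the responder's product cannot be told apart here. Arrays of a group are labelled biological replicates, and no sex is given.

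Some facts about the arrays bear on every value below. Median intensities were 111 to 115 on all 8. Mean correlation with the other arrays was 0.976 for PlGF replicate 1 and 0.992 to 0.993 for the rest. Pgf, the gene for PlGF, read 4136 and 917 in the PlGF hearts and 300.0, 229 and 211 in those labelled PlGF/RGS4, against 211, 349 and 387 in controls, so Pgf goes against the PlGF/RGS4 label. Rgs4 read 235 and 195 in PlGF, 234, 187 and 229 in PlGF/RGS4, and 209.5, 277 and 281.5 in control, which also goes against that label; whether the probe sets can read the transgene transcripts was not tested. The tissue carried its label: the 14 ventricular cardiomyocyte markers summed to 127388 to 144320 intensity units in PlGF and 142845 to 143828 in PlGF/RGS4, against 143587 to 147064 in control. Xist was low in 1 array of each group.

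The promoters of the 3 genes are shown because the genes were chosen for being high together. Each run is the 250 bases before the annotated start in RefSeq on the assembly GRCm38.p6, 5′ to 3′ on the gene's own strand, at chr7:45163671-45163920 on the plus strand for Slc17a7, chr1:172219896-172220145 on the minus strand for Casq1 and chr12:46818768-46819017 on the minus strand for Nova1. Capitals mark E-boxes, the letters CANNTG that basic helix-loop-helix factors of muscle and nerve can bind.
Slc17a7: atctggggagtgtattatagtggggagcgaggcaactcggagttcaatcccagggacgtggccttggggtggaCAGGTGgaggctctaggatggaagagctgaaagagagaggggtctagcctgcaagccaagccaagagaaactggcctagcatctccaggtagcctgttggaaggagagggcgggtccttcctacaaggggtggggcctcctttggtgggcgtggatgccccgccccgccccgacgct
Casq1: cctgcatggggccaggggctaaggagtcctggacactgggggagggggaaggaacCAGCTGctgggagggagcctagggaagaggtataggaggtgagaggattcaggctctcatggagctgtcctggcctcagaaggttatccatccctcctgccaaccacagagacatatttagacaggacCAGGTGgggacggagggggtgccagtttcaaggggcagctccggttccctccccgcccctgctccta
Nova1: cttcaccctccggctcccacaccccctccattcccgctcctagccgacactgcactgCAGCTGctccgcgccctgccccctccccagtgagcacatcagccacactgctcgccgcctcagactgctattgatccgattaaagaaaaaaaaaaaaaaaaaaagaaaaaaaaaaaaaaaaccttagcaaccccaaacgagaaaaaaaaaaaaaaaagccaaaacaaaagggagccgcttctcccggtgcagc

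Each window held at least 1 E-box, with 1 in Slc17a7, 2 in Casq1 and 1 in Nova1, but so did 66.2% of all 32851 RefSeq promoter windows of this length. The GC box GGGCGG on either strand was found 3 times in Slc17a7, once in Casq1 and not in Nova1, against 32.7% of windows with at least 1. CATTCC, the core of the MCAT motif, was found once in Nova1 and in 12.6% of windows. None of the 3 windows held TATAAA (12.4% of windows), TGACG (17.8%), a MEF2 motif (2.92%) or a CArG box (1.47%). All motifs were searched on both strands, overlapping matches of 1 motif were each counted, and no match overlapped one of a different motif. The windows of Slc17a7 and Casq1 had a GC content of 61.2% and 61.6%, and that of Nova1 50.0%, with an uninterrupted run of 19 A in it; the median of all windows was 52.4%. These matches describe letters and say nothing of binding.

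Slc17a7 had the largest step. Its intensity was 1018 and 910 in the PlGF hearts and 754, 977 and 894 in the hearts labelled PlGF/RGS4, against 259, 185 and 183 in control hearts. All 5 transgenic hearts lay far above the 3 controls: the lowest PlGF heart was 3.51 times the highest control, and the lowest heart labelled PlGF/RGS4 was 2.91 times it. The mean was 964 in PlGF, 875 ± 113 in PlGF/RGS4 and 209 ± 43.4 in control (SD, n = 3 for the last 2 groups; both PlGF values are given in place of an SD). On the log2 scale of intensity plus 1, which is used for every difference here, PlGF stood 2.21 above control, or 4.66-fold, and PlGF/RGS4 stood 2.07 above it, or 4.21-fold. The spread within groups, pooled over the arrays of each pair of groups, was 0.24 (SD, log2) in both comparisons.

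Casq1 followed at a smaller size. It read 675 and 604 in PlGF and 667, 558 and 752 in PlGF/RGS4, against 229.5, 261 and 213.5 in control. Again no transgenic heart came down to the controls, and the lowest heart of each transgenic group was 2.32 and 2.14 times the highest control in PlGF and in PlGF/RGS4. The mean was 639 in PlGF, 659 ± 97.4 in PlGF/RGS4 and 235 ± 24.0 in control (SD, n = 3 for the last 2). The differences from control were 1.45 in PlGF, or 2.73-fold, and 1.48 in PlGF/RGS4, or 2.80-fold, with a pooled SD of 0.14 and 0.18.

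Nova1 had the smallest step and the tightest arrays. Its brighter probe set read 206 and 212 in PlGF and 182, 172 and 174 in PlGF/RGS4, against 116, 119 and 125 in control. The 3 groups formed 3 bands that did not overlap, with PlGF on top and control at the bottom. The place of control follows from how the gene was chosen, and how many genes form such bands was not counted. The mean was 209 in PlGF, 176 ± 5.31 in PlGF/RGS4 and 120 ± 4.36 in control (SD, n = 3 for the last 2). PlGF stood 0.80 above control, or 1.75-fold, with a pooled SD of 0.05, and PlGF/RGS4 stood 0.55 above it, or 1.47-fold, with the same pooled SD.

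The dimmer Nova1 probe set did not repeat this pattern in full. It read 101 and 84.6 in PlGF and 91.6, 89.5 and 72.5 in PlGF/RGS4, against 71.1, 81.1 and 73.4 in control. Both PlGF hearts were above the controls, by as little as 1.04-fold between the nearest arrays, while PlGF/RGS4 overlapped control. Over all genes, 14.3% had both PlGF arrays above every control, and 6.96% had all 3 arrays labelled PlGF/RGS4 above every control. Its differences from control were 0.30 in PlGF and 0.16 in PlGF/RGS4, against a pooled SD of 0.13 and 0.15. The exons that each Nova1 probe set covers are not given in the sources used here.

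**Figure D1:**
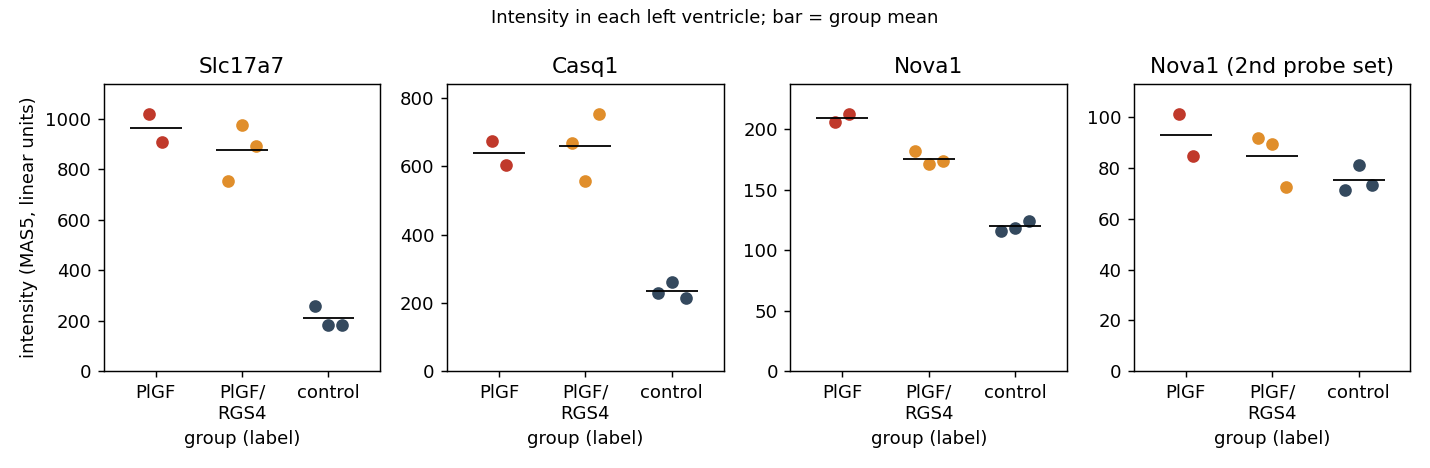
Intensity (linear MAS5 units, axes from 0) of Slc17a7, Casq1 and both Nova1 probe sets in each heart, with PlGF, PlGF/RGS4 and control from left to right; points are single hearts and bars are group means. In the first 3 panels all 5 transgenic hearts lie above the 3 controls, and in the dimmer Nova1 probe set (the 4th panel) PlGF/RGS4 and control overlap.

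Among all 19933 genes, 621 (3.12%) had all 5 transgenic arrays above all 3 controls, and these 3 genes are among them by the way they were chosen. Ordered by the smaller of the 2 differences from control, Slc17a7 was the first gene, at 2.07, and Casq1 the second, at 1.45. The next 3 were Tpm2, a tropomyosin, at 0.95, Tnc, the matrix protein tenascin C, at 0.85, and Aldh1a2, a retinoic acid synthesizing enzyme, at 0.77. Nova1 was the 19th, at 0.55. Over all genes, limma called 0.0151% as higher in hearts labelled PlGF/RGS4 than in control, which is 3 genes, and 0 as lower (before adjustment 2.74% passed as higher and 2.28% as lower at 0.05). In PlGF it called 2.53%, 1.79% as higher and 0.748% as lower. Before adjustment 10.9% of all genes passed as higher in PlGF and 11.7% as lower at 0.05. The unadjusted counts of the lists and neighbours below stand beside these shares. Slc17a7, Casq1 and Nova1 are the 3 genes in PlGF/RGS4 and are among those called in PlGF, but both contrasts chose them, so these calls are no test of the 3 genes and nothing is read from them.

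**Figure D2:**
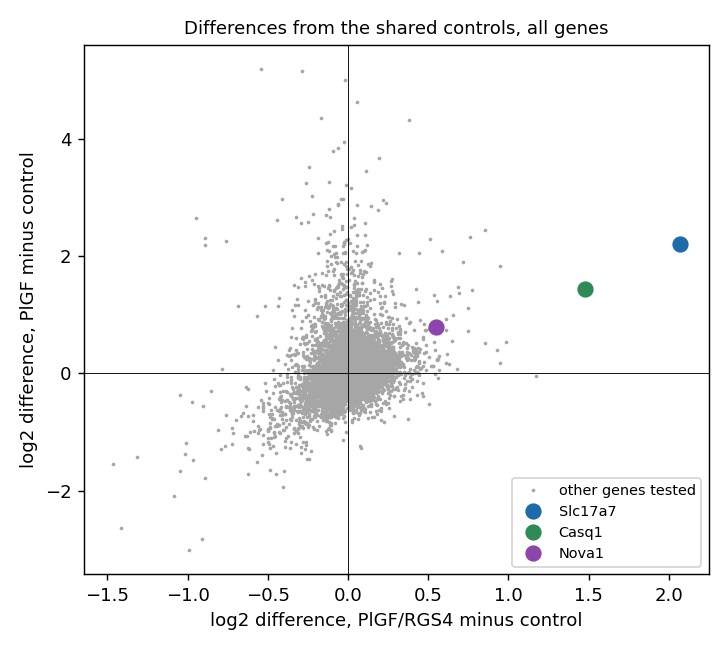
Log2 difference from control of every gene tested, PlGF/RGS4 minus control on the horizontal axis and PlGF minus control on the vertical axis; each point is a gene, both axes share the 3 control arrays, and the 3 genes are coloured. Slc17a7 (2.07 and 2.21) and Casq1 (1.48 and 1.45) stand to the right of all other genes, while Nova1 (0.55 and 0.80) lies at the edge of the cloud.

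The contrast between the 2 transgenic groups was tested. Slc17a7 was 0.15 ± 0.17 (SE) higher in PlGF than in PlGF/RGS4, with a 95% interval of -0.26 to 0.55, or 0.837-fold to 1.46-fold (limma adjusted p = 0.66 over all genes; two-sided exact permutation p = 0.4). The arrays of the 2 groups overlapped. Casq1 differed by -0.03 ± 0.14, with an interval of -0.35 to 0.28, or 0.783-fold to 1.22-fold (limma adjusted p = 0.912; exact permutation p = 0.9), and its arrays overlapped too. Both intervals leave room for a difference in either direction, so they do not show that the groups were alike.

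Nova1 was 0.25 ± 0.05 (SE) higher in PlGF, with an interval of 0.12 to 0.38, or 1.09-fold to 1.30-fold. Both PlGF arrays were above all 3 arrays labelled PlGF/RGS4, and how many genes do so was not counted. The limma p was 0.00202 before and 0.0848 after adjustment over all genes, which misses the threshold, and the exact permutation p was 0.1, the smallest that 10 arrangements of 2 arrays against 3 can give. Without PlGF replicate 2, which leaves a single PlGF array, the difference was 0.23. Of all genes, 1.19% were called in this contrast, 1.1% as higher in PlGF and 0.0853% as lower, and of the 3 genes limma called 0. Before adjustment Nova1 alone of the 3 passed at 0.05, as did 8.95% of all genes in that direction.

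The step over control can be set beside Pgf in each heart. Pgf was 4136 and 917 in the 2 PlGF hearts, where Slc17a7 was 1018 and 910, Casq1 675 and 604, and Nova1 206 and 212. In the hearts labelled PlGF/RGS4, Pgf was within the range of the controls in 2 and at 210.8 in the third, just under the lowest control at 211.1, while Slc17a7 was 4.21-fold and Casq1 2.80-fold over control there. With Xist low in 1 array of each group, the levels can also be read at each Xist level, where the order against control is fixed by how the genes were chosen. In the low arrays Slc17a7 read 1018 in PlGF and 977 in PlGF/RGS4, against 185 in control, and in the high arrays 910 in PlGF and 754 to 894 in PlGF/RGS4, against 183 to 259 in control.

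Leukocyte genes rose in the PlGF hearts. Of 13 leukocyte markers measured, 6 rose in PlGF against control (Ptprc, Lyz2, Cd3e, Cd4, Cd8a and Nkg7), with a list median of 1.20. The markers' median difference from the control mean was 1.70 in PlGF replicate 1 and 0.68 in PlGF replicate 2. The 6 calls also rested on arrays of the other groups. Nkg7 alone rose without control replicate 1 or any 1 array labelled PlGF/RGS4, and 0 rose without control replicate 2 or 3. In PlGF/RGS4 against control limma called 0, with 0 before adjustment and a median of 0.01, and between the 2 transgenic groups it called 4 as higher in PlGF. The summed leukocyte intensity was 6628 to 12657 in PlGF and 3304 to 4342 in PlGF/RGS4, against 3677 to 3932 in control. Slc17a7 and Casq1 were high in both transgenic groups, with a leukocyte sum of 3304 to 4342 in PlGF/RGS4. Of 9 genes of the fetal and hypertrophic program limma called 0 in both comparisons (2 higher unadjusted in PlGF and 2 lower in PlGF/RGS4), with medians of 0.70 in PlGF and -0.24 in PlGF/RGS4, and of 10 atrial markers it called 0 as well (2 lower unadjusted in PlGF and 1 lower in PlGF/RGS4).

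**Figure D3:**
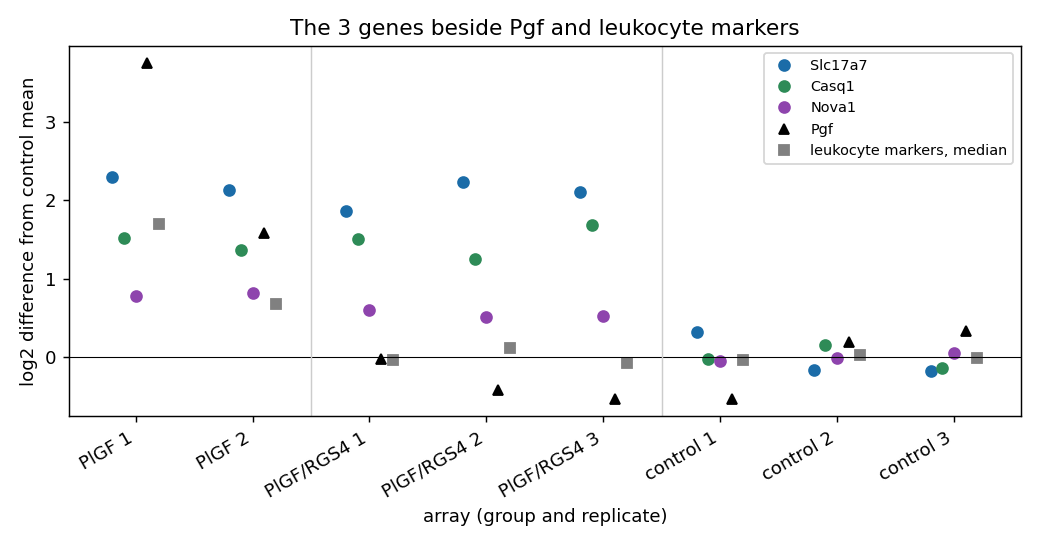
Log2 difference of each array from the control mean for Slc17a7, Casq1 and Nova1 (circles), Pgf (triangles) and the median of the 13 leukocyte markers (squares), with the arrays along the horizontal axis by group and replicate. Pgf and the leukocyte markers are high in the 2 PlGF arrays only, whereas the 3 genes are high in all 5 transgenic arrays.

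Markers of cell types that normally express the 3 genes were read on the same arrays. In this bulk tissue, fewer cells of a type and less RNA per cell cannot be told apart. Of 21 neuron markers measured, limma called 0 in either comparison with control (1 higher and 1 lower in PlGF unadjusted, that is at a limma p under 0.05 before adjustment, and 0 in PlGF/RGS4), with medians of -0.03 in PlGF and 0.01 in PlGF/RGS4 beside -0.03 and 0.00 over all genes. Their summed intensity was 1545 to 1549 in PlGF and 1492 to 1547 in PlGF/RGS4, against 1496 to 1553 in control. Of 10 Schwann cell and glia markers limma also called 0 (1 higher and 1 lower unadjusted in PlGF, and 0 higher and 1 lower in PlGF/RGS4). Their sum was 3356 to 4044 in PlGF and 3529 to 3760 in PlGF/RGS4, against 3531 to 4138 in control. No marker of these lists was at 0, and the array gives no detection call, so a low level is not told from background.

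Skeletal muscle, the tissue in which calsequestrin 1 is the main form, was read through 24 markers. Limma called 0 of them in both comparisons (0 higher and 5 lower unadjusted in PlGF, 1 higher and 2 lower in PlGF/RGS4), and their medians were -0.08 in PlGF and 0.00 in PlGF/RGS4. Their summed intensity was 13003 to 14862 in PlGF and 11687 to 13771 in PlGF/RGS4, against 13141 to 13512 in control. Differences of single markers from control went both ways, from -0.69 to 0.89 in PlGF and from -0.47 to 0.86 in PlGF/RGS4. Myh1, a fast myosin, read 40.3 and 47.9 in PlGF and 47.9, 46.2 and 45.1 in PlGF/RGS4, against 55.0, 54.4 and 51.3 in control. Tnnt1, the slow skeletal troponin T, differed by -0.69 in PlGF and -0.47 in PlGF/RGS4 without a call. Mybpc2, the fast myosin-binding protein C, read 241 and 554 in PlGF and 437, 397 and 566 in PlGF/RGS4, against 265, 289 and 215 in control; its difference in PlGF/RGS4 was 0.86 (limma adjusted p = 0.945), and PlGF replicate 1 lay inside the control range.

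The rest of the Slc17 family did not share the step of Slc17a7. Of its 8 other members, limma called 0 in either comparison with control (0 higher and 1 lower unadjusted in PlGF, and 0 in PlGF/RGS4), and none had all 5 transgenic arrays above the controls. Their differences ran from -0.27 to 0.10 in PlGF and from -0.08 to 0.12 in PlGF/RGS4. Slc17a6, the second vesicular glutamate transporter VGLUT2, read 24.5 in both PlGF arrays and 21.9, 24.0 and 25.2 in PlGF/RGS4, against 24.5, 24.6 and 22.2 in control. Slc17a8, which encodes VGLUT3, read 51.3 and 51.7 in PlGF and 57.7, 54.1 and 54.1 in PlGF/RGS4, against 52.6, 54.7 and 51.7 in control. Both overlapped the controls in each group. Without a detection call, levels as low as these are not told from background, so a missing step says little there.

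Glutamate handling was read through 19 further genes of uptake and metabolism. In PlGF 0 rose and 1 fell (5 higher and 4 lower unadjusted), and in PlGF/RGS4 limma called 0 (1 higher and 3 lower unadjusted). The gene that fell was Glul, glutamine synthetase, which makes glutamine out of glutamate. It read 3028 and 3101 in PlGF and 3753, 4262 and 3285 in PlGF/RGS4, against 4537, 5441 and 5104 in control. The difference was -0.71 in PlGF (limma adjusted p = 0.034) and -0.42 in PlGF/RGS4 (limma adjusted p = 0.815). The call in PlGF was lost when any array but PlGF replicate 2 was left out, with a limma adjusted p of up to 0.129.

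Slc1a1, the glutamate transporter EAAT3 of the cell surface, was 1 of the 2 genes of this list with all 5 transgenic arrays above the controls. It read 141 and 125 in PlGF and 140.1, 121 and 157 in PlGF/RGS4, against 111, 95.6 and 105 in control, differences of 0.35 (limma adjusted p = 0.14) and 0.42 (limma adjusted p = 0.821). The other was Slc1a3, the glial transporter EAAT1, at 0.44 in PlGF and 0.14 in PlGF/RGS4, also without a call. That is 2 of 19, beside 3.12% of all genes.

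Neither the receptors for glutamate nor the machinery that releases it was called. Of 22 glutamate receptor genes limma called 0 in both comparisons (0 higher and 1 lower unadjusted in PlGF, and 0 in PlGF/RGS4), with medians of -0.09 in PlGF and -0.01 in PlGF/RGS4. Of 22 genes of the synaptic vesicle and its release limma called 0 (2 higher and 2 lower unadjusted in PlGF, and 0 in PlGF/RGS4), with medians of -0.07 and 0.04. Syp, the vesicle protein synaptophysin, read 76.3 and 96.3 in PlGF and 107, 102 and 97.2 in PlGF/RGS4, against 96.9, 101 and 96.8 in control. A missing call does not show that these genes were unchanged, and a low level is not told from background here either. Which cells made the Slc17a7 transcript was not tested.

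Among 31 other genes of the calcium release unit and the sarcoplasmic reticulum, Casq2 is the closest relative of Casq1. It read 5626 and 5898 in PlGF and 5396, 5515 and 5529 in PlGF/RGS4, against 6153, 5507 and 5310 in control. Its differences were 0.03 in PlGF (limma adjusted p = 0.835) and -0.04 in PlGF/RGS4 (limma adjusted p = 0.998), and the groups overlapped. Ryr1, the skeletal muscle release channel, read 60.0 and 68.1 in PlGF and 68.1, 68.1 and 66.4 in PlGF/RGS4, against 68.1, 74.2 and 67.0 in control.

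In PlGF 1 gene of that list rose and 1 fell (1 higher and 7 lower unadjusted), and in PlGF/RGS4 limma called 0 (3 higher and 2 lower unadjusted). The medians were -0.07 and -0.03. Cacnb1, the beta subunit of the skeletal muscle L-type calcium channel, rose in PlGF. It read 160 and 161 in PlGF and 164, 158.5 and 181 in PlGF/RGS4, against 129, 122 and 122 in control, so that all 5 transgenic arrays were above the controls as for Casq1. The difference was 0.37 in PlGF (limma adjusted p = 0.0425) and 0.43 in PlGF/RGS4 (limma adjusted p = 0.345). Cacna1s, the pore of the same skeletal muscle channel, fell in PlGF. It read 101 and 127 in PlGF and 162, 162.5 and 164 in PlGF/RGS4, against 196, 192 and 170.0 in control, a difference of -0.71 in PlGF (limma adjusted p = 0.0247) and -0.19 in PlGF/RGS4 (limma adjusted p = 0.995). Without PlGF replicate 1, which leaves a single PlGF array, the difference in PlGF was 0.37 for Cacnb1 and -0.54 for Cacna1s. Leaving out any array other than PlGF replicate 2 cost Cacnb1 its call, and leaving out any of the 6 arrays labelled PlGF/RGS4 or control cost Cacna1s its own. The call of Cacnb1 was also lost under quantile normalization (limma adjusted p = 0.0591), with a trend and robust prior (0.0503), with only the 2 groups fitted (0.189) and with the replicate block (0.128). The second gene of the list with all 5 transgenic arrays above the controls was Orai1, the store-operated calcium channel, at 0.06 in PlGF and 0.10 in PlGF/RGS4, without a call.

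Nova1 was set beside 26 other tissue-restricted splicing factors. In PlGF 0 rose and 1 fell (2 higher and 6 lower unadjusted), and in PlGF/RGS4 limma called 0 (2 higher and 0 lower unadjusted). Nova2, the second Nova gene, read 161 and 188 in PlGF and 193, 188 and 195 in PlGF/RGS4, against 188, 188 and 196 in control, and it overlapped the controls. Rbm24, a splicing factor of heart and skeletal muscle, fell by 0.46 in PlGF (limma adjusted p = 0.0362) and differed by -0.14 in PlGF/RGS4 (limma adjusted p = 0.995). Its call was lost when any array but PlGF replicate 2 was left out. Rbfox1, a splicing factor of muscle and neurons, read 215 and 490.5 in PlGF and 623, 599 and 617 in PlGF/RGS4, against 811.5, 878 and 825 in control. Its differences were -1.36 in PlGF (limma adjusted p = 0.0579) and -0.45 in PlGF/RGS4 (limma adjusted p = 0.995), without a call. Rbfox2, its relative in many tissues, was the 1 gene of the list with all 5 transgenic arrays above the controls, at 0.19 in PlGF and 0.13 in PlGF/RGS4 without a call.

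Transcripts with exons that Nova proteins are known to regulate were measured as whole genes, so their splicing was not read here. Of 9 measured, limma called 0 in both comparisons (1 higher unadjusted in PlGF, and 0 in PlGF/RGS4), and their medians were 0.00 in PlGF and 0.02 in PlGF/RGS4. Agrn, agrin, had all 5 transgenic arrays above the controls, at 530 and 469 in PlGF and 443, 453 and 479 in PlGF/RGS4, against 419, 438 and 411 in control. The differences were 0.24 in PlGF (limma adjusted p = 0.105) and 0.12 in PlGF/RGS4 (limma adjusted p = 0.995).

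**Figure D4:**
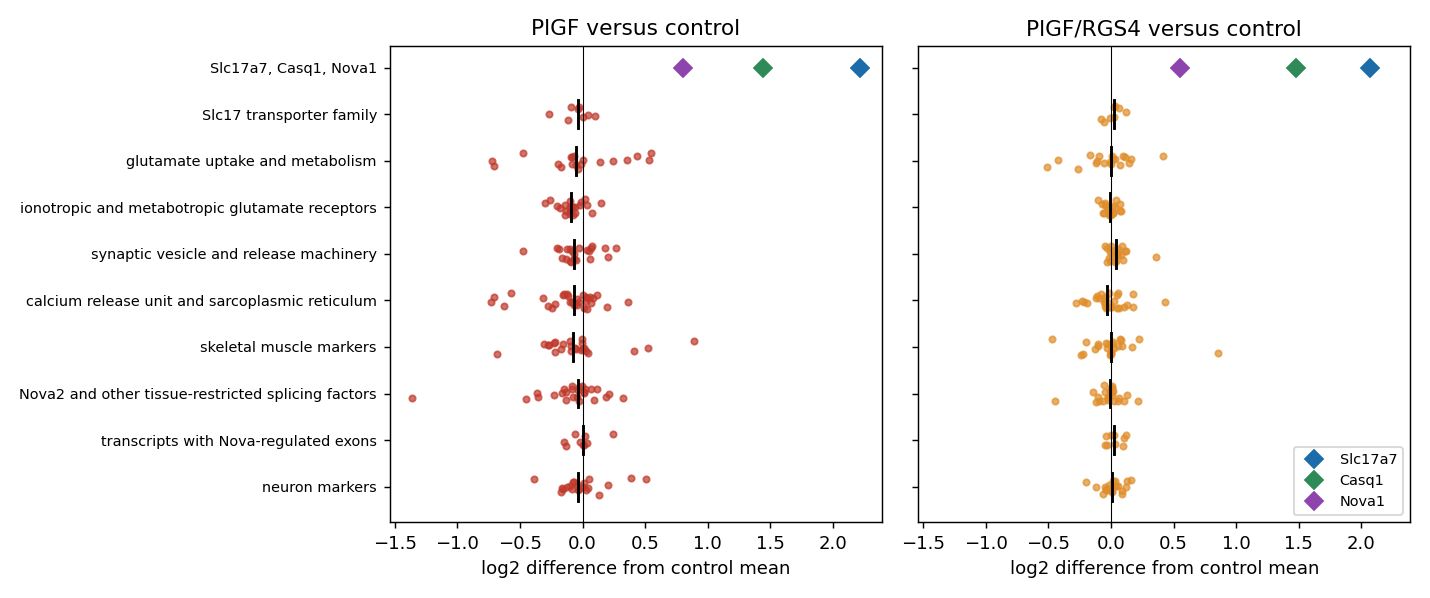
Log2 difference from the control mean of the genes of 9 lists, PlGF in the left panel and PlGF/RGS4 in the right; points are genes, scattered vertically for sight, black bars are list medians, and diamonds in the top row are Slc17a7, Casq1 and Nova1. List medians lie between -0.09 and 0.04 in both panels, and the 3 genes, chosen for being high, lie between 0.55 and 2.21. Single skeletal muscle markers reach 0.89 in PlGF and 0.86 in PlGF/RGS4, above Nova1 at 0.80 and 0.55.

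Genes beside the 3 on their chromosomes were not called. The 3 nearest tested genes on each side, in the order of the GRCm38.p6 gene table, gave 18 neighbours. Limma called 0 of them in either comparison with control (2 higher and 3 lower unadjusted in PlGF, and 0 in PlGF/RGS4), and none had all 5 transgenic arrays above the controls. Their differences ran from -0.46 to 0.37 in PlGF and from -0.16 to 0.17 in PlGF/RGS4, with medians of -0.04 and 0.01. Flt3l, a cytokine gene near Slc17a7 on chromosome 7, read 257 and 307 in PlGF and 248, 247 and 248 in PlGF/RGS4, against 248, 212 and 201 in control. Near Casq1 on chromosome 1, Pea15a differed by 0.37 in PlGF and 0.05 in PlGF/RGS4, and Atp1a4, a sodium pump subunit of sperm, by -0.18 and 0.04. Stxbp6 and Prkd1, the nearest tested gene on each side of Nova1 on chromosome 12, differed by -0.46 and -0.30 in PlGF and by -0.04 and -0.16 in PlGF/RGS4. The tested neighbours of Nova1 lay 1623 to 4558 kb from it, so they do not describe its close surroundings. Those of Slc17a7 lay 3.6 to 31.4 kb away and those of Casq1 3.1 to 101 kb.

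**Figure D5:**
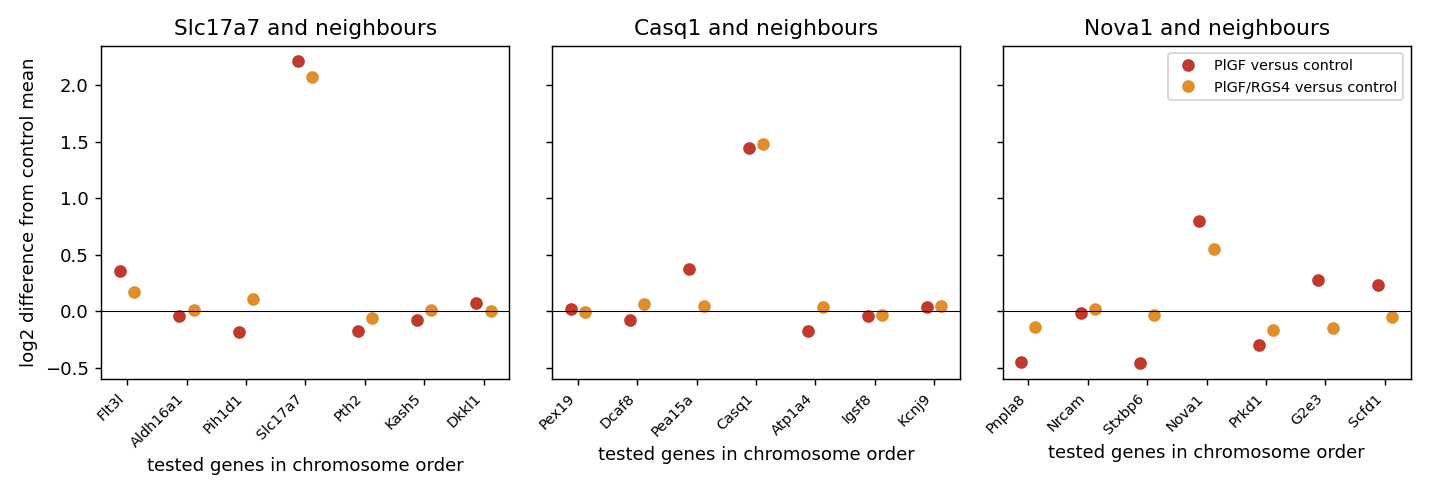
Log2 difference from the control mean of Slc17a7, Casq1, Nova1 and the 3 nearest tested genes on each side, in chromosome order and not to scale in distance, for PlGF (red) and PlGF/RGS4 (orange). Each of the 3 genes, chosen for being high, stands above its 6 neighbours, whose differences lie between -0.46 and 0.37.

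The genes whose profile over the 8 arrays was most like each of the 3 were taken by the root mean square difference of log2 values, each gene centred on its control mean. For Slc17a7 the most like gene was Casq1, at a difference of 0.58, then Tpm2 at 0.82 and Ccl7, a monocyte chemokine, at 0.94. Tpm2 read 1447 and 713 in PlGF and 547, 743 and 404 in PlGF/RGS4, against 259.8, 396 and 222 in control, so PlGF/RGS4 replicate 3 came close to the highest control. Casq1 was thus closer to Slc17a7 than any other gene with a proper name was. The measure holds the steps over control that chose both genes, so their likeness is no separate result.

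For Casq1 the most like genes were B3galt2, a galactosyltransferase, and Hspa1l, a heat shock protein, both at 0.54, and Dok5, a docking protein, at 0.56. B3galt2 read 412 and 466 in PlGF and 319, 330.0 and 377 in PlGF/RGS4, against 248, 255.5 and 131 in control. For Nova1 the match was closer, with Zfp346, a zinc finger protein that binds double-stranded RNA, at 0.10, Dpy19l1 at 0.11 and Ptpre, a tyrosine phosphatase, at 0.18. Zfp346 read 968 and 1041 in PlGF and 896, 929.5 and 949 in PlGF/RGS4, against 559, 681 and 635 in control, in 3 bands as for Nova1. It was picked for this likeness, so the bands are no separate result. Zfp346 was 0.12 higher in PlGF than in PlGF/RGS4, without a call (limma adjusted p = 0.468). The measure grows with the size of a difference, so it is not compared between the 3 genes.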

How the data were processed

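Left ventricular RNA of 8 mice was hybridised to Affymetrix Mouse Gene 1.0 ST arrays, 1 array per heart. The deposited intensity values came from the authors' MAS 5 analysis with global scaling, per the methods and the submitters' processing notes; they are linear, 1 value per probe set, with no detection call. Depth does not apply to arrays, so the number of arrays limits the precision. The 8 array columns all entered the fit, and 0 remained unused.

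Probe sets were named through the platform annotation: 21780 of 28440 carried 1 symbol, 1618 several and 5042 none, and 0 symbols needed renaming. Probe sets with 1 symbol were kept, the brightest per gene, for 19933 genes in all. Differences are on the scale log2(intensity + 1), which understates changes of dim genes. Contrasts came from 1 limma 3.58.1 model in R 4.3.3 (lmFit, eBayes) of 3 group means over the 8 arrays, with Benjamini-Hochberg adjustment over all genes and a threshold of 0.05; the prior had 2.41 degrees of freedom. Tests of single genes were two-sided exact permutation tests. The scripts were tested on simulated data.

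The members and the 15 gene lists were chosen with earlier results of these data known. From each list, genes passing the test and at most 4 with the smallest unadjusted p were named by rule; list members named to describe a role (Slc17a6, Slc17a8, Casq2, Ryr1, Syp and Nova2) were added, and Mybpc2, Slc1a3, Orai1, Rbfox2, Tnc and Aldh1a2 were singled out after their values were seen. The alternatives were quantile normalization, centring on the array median, a pseudocount of 16, a fit to brighter genes (mean above the median), every probe set, a prior with trend and robust fitting, a fit to the 2 groups compared, the replicate number as a block, Xist level as a term, and each array left out in turn. Same-numbered arrays deviated with correlations of -0.22 to 0.30, so the numbers were not taken as pairs. No build is named for the arrays, so coordinates are given for RefSeq promoters alone.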

Additional observations from a re-analysis of the deposited data

Results flagged for a closer look

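Of the genes whose values stand beside Slc17a7, Casq1 and Nova1, 4 leukocyte markers differed between the 2 transgenic groups by the limma test of that contrast. Ptprc, the pan-leukocyte gene for CD45, was 2.36 higher on the log2 scale in PlGF than in PlGF/RGS4 (limma adjusted p = 0.0154). Cd4, of helper T cells, was 0.60 higher (limma adjusted p = 0.0263), Cd8a, of cytotoxic T cells, 2.23 higher (limma adjusted p = 0.0448), and Nkg7, of natural killer and cytotoxic T cells, 4.57 higher (limma adjusted p = 0.00852). None of these calls survived a fit to the arrays of the 2 groups alone (limma adjusted p of 0.241 to 0.298). The contrast of Slc17a7, Casq1 or Nova1 was not called.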

How the results depend on the processing

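Slc17a7 and Casq1 kept their distance from control under all 17 alternatives, at 2.13 to 2.38 and 1.37 to 1.52 in PlGF, and at 1.98 to 2.23 and 1.38 to 1.59 in PlGF/RGS4 with each array left out. Both genes were chosen by these contrasts on the same arrays, so this describes the values and is no separate support. Nova1 in PlGF moved to 0.75 under quantile normalization and 0.73 with a pseudocount of 16, and in PlGF/RGS4 to 0.50 with that pseudocount. Between the transgenic groups, Casq1 changed sign, to 0.045 without PlGF replicate 2 and 0.066 without PlGF/RGS4 replicate 3 (-0.15 to 0.066 over the arrays left out). Nova1 gave 0.23 without PlGF replicate 2, a fit with a single PlGF array, and 0.23 to 0.28 over the arrays left out. Its limma adjusted p was 0.253 without PlGF/RGS4 replicate 3, and 0.0752 to 0.298 under other settings. The cause of these shifts was not tested.

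Counts of called genes rest on few arrays. In PlGF against control, 505 became 0 with only the 2 groups fitted and 27 with the replicate block, and 17 to 5921 with each array left out. In PlGF/RGS4, 3 became 0 with all probe sets, with only the 2 groups, with the replicate block and with the Xist term, and 0 to 1 with an array left out. Between PlGF and PlGF/RGS4, 237 became 138 with a pseudocount of 16, 110 among brighter genes, 1 with only the 2 groups and 26 with the replicate block, and 11 to 5591 with an array left out. Centring on the array median moved the share called higher in PlGF to 57.7%, against 70.5%. With only the 2 groups fitted and with the replicate block, the calls in PlGF against control of Glul (limma adjusted p = 0.189 and 0.0852), Cacna1s (0.2 and 0.0929) and Rbm24 (0.203 and 0.132) were lost, and of the 6 leukocyte markers 0 and 1 passed.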
